A study of Homo sapiens with 34 samples.

Results

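SMARCA1 binding was compared between oxidatively stressed and non-treated U2OS cells, an osteosarcoma line, by CUT&RUN, a method in which a nuclease held by an antibody releases the DNA around the bound protein. The comparison uses 4 of the 34 samples of the series, chosen by their titles: the SMARCA1 libraries of cells that received the control siRNA siGl3. Of these, 2 came from non-treated cells and 2 from cells given 5 mM H2O2 for 30 min, with replicates 1 and 2 in each group. All 4 cell samples had 72 h of siRNA and a double-thymidine block with 3 h of release, so both treatments were measured in early S phase, and cells were lightly fixed with formaldehyde. For each library the authors deposited a list of regions called by SEACR, a caller that reports stretches of continuous signal. The 4 lists held 135027 regions on chromosomes 1 to 22 and X, and the 16 lists used here for context also cover Orc6 and OGG1 in siGl3 cells and SMARCA1 in siOrc6 cells. In the labels a replicate's number is also its batch, and nothing says whether the replicates were separate cultures, so spread between them may be technical. The lists hold no read counts, so the sequencing depth behind them is unknown, and values from the IgG libraries were not used here.

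SMARCA1, also called SNF2L, is an ATPase of the ISWI family. ISWI enzymes use ATP to slide nucleosomes and to space them evenly, and they work in complexes such as NURF, whose BPTF subunit reads histone marks, and CHRAC, whose small subunits include CHRAC1. Hydrogen peroxide oxidises guanine in DNA. OGG1 is the glycosylase that starts base excision repair at oxidised guanine, and Orc6 is part of the origin recognition complex, which marks where DNA replication can start.

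Regions of the 4 lists that overlapped were merged into 87193 loci, and each locus was described by the libraries that held a region there. A locus in both non-treated and both H2O2 libraries is called kept, a locus in both H2O2 and neither non-treated library gained, and a locus in both non-treated and neither H2O2 library lost. The same names are used for protein-coding genes, by regions within 1 kb of either end of the gene. The names describe lists of called regions, and a region missing from a list may still hold signal below the caller's floor.

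Example promoters of genes of the 3 patterns are shown first, and they need not be typical of their pattern. Each is the 250 bases before a start site that RefSeq lists (GRCh38.p14), 5′ to 3′ on the strand of the gene, with matches to a set of 13 short motifs on either strand in capitals. They are the highest ranked list genes of each pattern whose listed promoter showed the same pattern. Kept were ITGB1, the integrin beta 1 chain (chr10:32958231-32958480, minus strand), and ID1, a BMP-induced inhibitor of helix-loop-helix factors (chr20:31605039-31605288, plus strand). Gained were EGR1, an immediate early zinc finger factor (chr5:138465229-138465478, plus strand), and FOSB, an immediate early AP-1 subunit (chr19:45467746-45467995, plus strand). Lost were GKN1, a stomach mucosa gene (chr2:68974386-68974635, plus strand), and PMS2, a mismatch repair protein (chr7:6009107-6009356, minus strand), both at loci where H2O2 lists had regions away from the gene ends.

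ITGB1: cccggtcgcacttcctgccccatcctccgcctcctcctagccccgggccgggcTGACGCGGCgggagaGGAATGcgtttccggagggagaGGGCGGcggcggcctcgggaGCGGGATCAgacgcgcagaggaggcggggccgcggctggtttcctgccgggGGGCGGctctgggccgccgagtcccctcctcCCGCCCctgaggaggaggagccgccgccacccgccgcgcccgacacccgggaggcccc
ID1: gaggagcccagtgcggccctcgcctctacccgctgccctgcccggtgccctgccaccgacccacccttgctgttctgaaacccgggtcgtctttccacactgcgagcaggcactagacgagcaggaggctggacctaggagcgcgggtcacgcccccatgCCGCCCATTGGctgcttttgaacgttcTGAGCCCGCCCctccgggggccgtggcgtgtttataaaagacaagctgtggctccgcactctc
EGR1: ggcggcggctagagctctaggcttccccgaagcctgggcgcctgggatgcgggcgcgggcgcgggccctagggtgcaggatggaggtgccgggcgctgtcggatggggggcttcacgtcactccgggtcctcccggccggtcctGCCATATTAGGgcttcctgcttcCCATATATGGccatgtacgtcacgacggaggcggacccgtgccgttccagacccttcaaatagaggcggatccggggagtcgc
FOSB: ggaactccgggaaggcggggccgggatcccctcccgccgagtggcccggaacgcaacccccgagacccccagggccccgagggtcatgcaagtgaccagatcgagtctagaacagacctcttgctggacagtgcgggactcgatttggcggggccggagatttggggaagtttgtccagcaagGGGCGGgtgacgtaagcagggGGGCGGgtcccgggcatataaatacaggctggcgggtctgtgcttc
GKN1: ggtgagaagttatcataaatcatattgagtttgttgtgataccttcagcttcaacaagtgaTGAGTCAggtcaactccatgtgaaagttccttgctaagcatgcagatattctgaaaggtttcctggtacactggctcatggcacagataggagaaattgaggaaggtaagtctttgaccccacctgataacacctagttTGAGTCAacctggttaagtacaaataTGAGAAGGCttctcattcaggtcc
PMS2: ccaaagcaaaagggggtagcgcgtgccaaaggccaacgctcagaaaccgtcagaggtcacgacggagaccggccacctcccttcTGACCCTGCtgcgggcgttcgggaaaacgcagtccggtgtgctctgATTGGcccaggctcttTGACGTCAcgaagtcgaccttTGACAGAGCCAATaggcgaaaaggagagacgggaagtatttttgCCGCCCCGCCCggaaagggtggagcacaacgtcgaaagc

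The ITGB1, ID1, EGR1 and FOSB stretches had a GC content of 78.4%, 66%, 68.4% and 65.6%, with 32, 19, 25 and 19 CpG dinucleotides. GKN1 had 41.6% GC and no CpG, and PMS2 had 59.6% GC and 22 CpG. The lost promoters described below had a median GC content of 61.3%, so GKN1 is not typical of them. The capitals in EGR1 mark a pair of serum response elements (CArG boxes), the first overlapping a YY1 core. This motif was added to the set after EGR1 and FOSB had been seen among the gained genes. In FOSB the capitals mark a pair of GC boxes (GGGCGG). In GKN1 they mark a pair of AP-1 sites (TGANTCA) and 1 loose antioxidant response element (TGANNNNGC). In PMS2 they include a full cyclic AMP response element (TGACGTCA), CCAAT boxes (CCAAT), GC boxes and antioxidant elements, some of which overlap. A match is a description of the letters and not a bound site.

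Over the 22131 listed promoters (250 bases before and 50 after a start, of 15811 genes), those with a region in all 4 libraries numbered 926, those in both H2O2 libraries alone 2059, and those in both non-treated libraries alone 113. Their median GC content was 63.7%, 65.0% and 61.3%, against 62.3% over all listed promoters and 59.3% over the 12152 promoters with no region. At least 10 CpG were present in 90.3% of kept, 92.8% of gained and 85.0% of lost promoters, against 70.1% of all and 55.0% of those with no region. A GC box was found in 67.9% of kept, 74.1% of gained and 61.1% of lost promoters, against 56.3% of all. The ETS core (CCGGAAG) was found in 17.8%, 20.7% and 15.04%, against 12.8% of all. The YY1 core (GCCATNTT) was found in 12.9%, 11.4% and 6.19%, against 7.37%, and the NRF1 core (GCGCATGC) in 7.67%, 5.10% and 4.42%, against 3.74%. The serum response element shown in EGR1 was rare in every set, at 0.864%, 1.02% and 2.65%, against 1.25% of all listed promoters. Promoters with a region were CpG-rich more often than those without one in each pattern, and of the motifs named here the GC box had the widest gap between kept and gained promoters.

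The lists of H2O2-treated cells were longer and their regions narrower. Non-treated replicates 1 and 2 had 6992 and 11036 regions, and H2O2 replicates 1 and 2 had 69927 and 47072. The means were 9014 ± 2860 and 58499.5 ± 16161 (SD, n = 2), a 6.53-fold ratio of geometric means, with 4.27-fold within replicate 2 and more within replicate 1. The groups did not overlap, and each H2O2 list was longer than both non-treated lists. The regions covered 31.8 and 43.6 Mb in non-treated cells and 100.4 and 78.3 Mb in H2O2-treated cells, a 2.38-fold ratio, with 3.16-fold and 1.80-fold within pairs. With 2 libraries against 2, the exact two-sided permutation test cannot go below p = 0.333, which both measures gave. Blocked by replicate number, the exact test cannot go below p = 0.5, and both gave that value. No difference between the treatments can therefore pass the exact test used here, and comparisons of libraries below are descriptions.

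The lowest total signal of any listed region, which may reflect where the authors' caller stopped, was 13925 and 10712 in the non-treated lists and 2502 and 3384 in the H2O2 lists, 4.19-fold lower with H2O2 by the group means. How the signal was scaled is not stated, and a total is summed over the width of a region. These values are therefore not known to be comparable between lists. This lowest value moved with the number of regions, and its part in the longer lists was not tested. When each list was cut to its 6992 regions of highest total signal, the H2O2 lists covered fewer bases (20.1 and 20.7 Mb) than the non-treated lists (31.8 and 33.0 Mb), so the direction for bases covered turned.

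**Figure D1:**
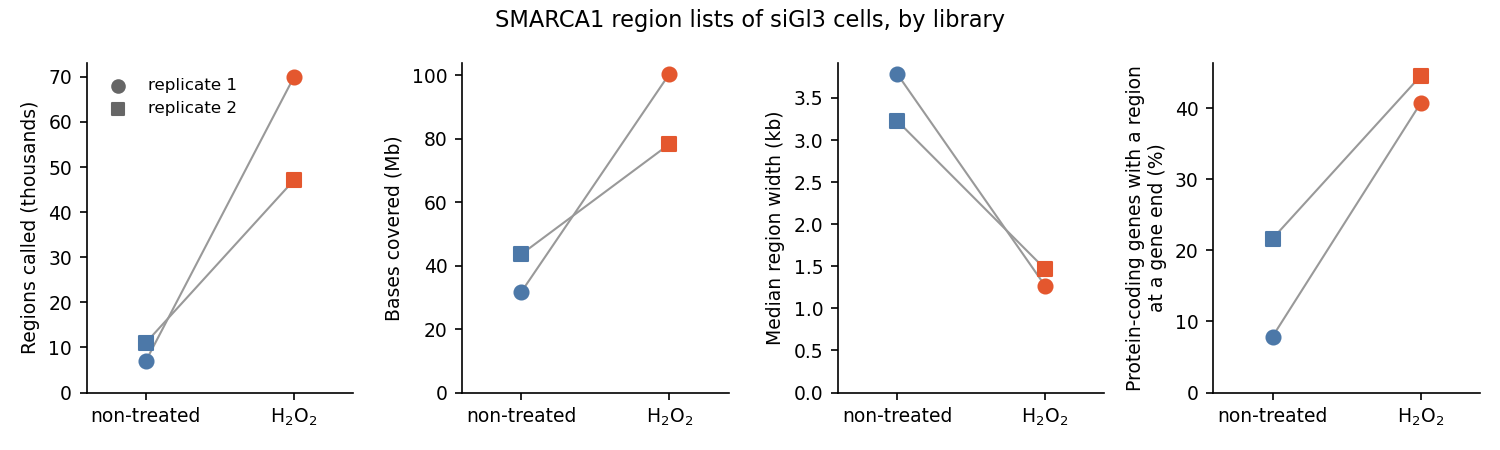
Number of regions, bases covered, median width and share of protein-coding genes with a region at a gene end in the 4 SMARCA1 libraries of siGl3 cells; circles are replicate 1, squares replicate 2, and grey lines join replicates of the same number. The H2O2 libraries had 69927 and 47072 regions with medians of 1270 and 1469 bp, the non-treated libraries 6992 and 11036 with medians of 3789.5 and 3231 bp.

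Region width differed in the same way in both pairs. The median width was 3789.5 and 3231 bp in non-treated cells and 1270 and 1469 bp in H2O2-treated cells, a difference of group means of -2140.75 bp (exact permutation p = 0.333, the smallest possible; n = 2). Regions wider than 5 kb made up 25.2% and 17.6% of the non-treated lists but 0.448% and 0.809% of the H2O2 lists. Non-treated cells had 293 and 357 regions over 10 kb and H2O2-treated cells 10 and 7. The widest region was 44770 and 44526 bp in non-treated and 13209 and 14611 bp in H2O2 libraries. Among the 6992 regions of highest total signal, the H2O2 medians were 2649.5 and 2730 bp and the non-treated medians 3789.5 and 3846.5 bp. For non-treated replicate 1 this is the whole list. The lowest total signal in the cut lists was still 13925 and 13818 in non-treated and 6861 and 8496 in H2O2 libraries. The part of the caller's floor in the widths was not tested.

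Of the 87193 loci, 4132 were kept (4.74%), 12082 gained (13.9%) and 150 lost (0.172%). These shares are over all loci, of which 62538 (71.7%) were seen in 1 H2O2 library alone. Non-treated loci were mostly found again. Of the 4816 loci in both non-treated libraries, 85.8% (95% Wilson interval 84.8 to 86.8%) were in both H2O2 libraries and 96.9% (96.4 to 97.3%) in at least 1. Of the 7757 loci in a single non-treated library, 63.4% were in both H2O2 libraries and 90.2% in at least 1. Conversely, 19.6% of the 21135 loci in both H2O2 libraries were in both non-treated libraries, and 42.8% were in at least 1. Intervals cover counting error only.

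**Figure D2:**
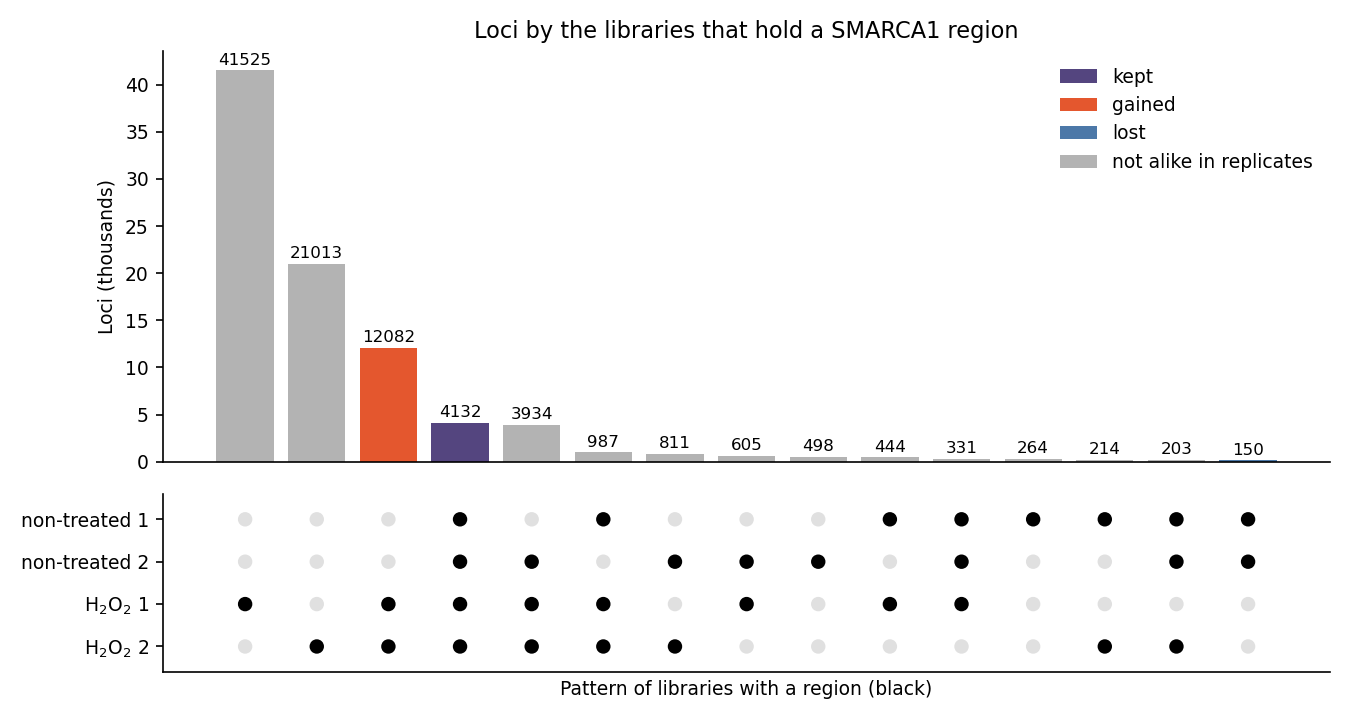
Number of loci (bars) by the set of libraries that hold a region there (black dots below each bar). The 2 tallest bars are loci of 1 H2O2 library alone (41525 and 21013); 12082 loci were gained, 4132 kept and 150 lost.

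The counts depended on how many regions each list held. Cut to 6992 regions each, the lists gave 1588 kept, 637 gained and 1134 lost loci, so that lost loci outnumbered gained ones; cut to equal covered bases, they gave 2225, 1870 and 546. The share of loci of both non-treated libraries found in both H2O2 libraries was then 40.03% and 58.3%. Each pattern asks for 2 libraries of a kind, so leaving 1 out admits more loci. Kept loci numbered 8121 without non-treated replicate 1. Gained loci numbered 33710 and 54767 without H2O2 replicate 1 and 2. Lost loci numbered 706 and 457 without non-treated replicate 1 and 2, and 492 and 356 without H2O2 replicate 1 and 2.

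Replicates shared less of their lists than non-treated lists shared with the longer H2O2 lists. Non-treated replicate 2 overlapped 72.0% of the regions of replicate 1, and replicate 1 overlapped 46.0% of those of replicate 2. H2O2 replicate 2 overlapped 35.2% of the regions of replicate 1, and replicate 1 overlapped 49.9% of those of replicate 2. Between 81.1% and 86.8% of the regions of a non-treated list were overlapped by an H2O2 list, which covered 3.31% (replicate 1) or 2.58% (replicate 2) of the genome span. Between 12.7% and 24.6% of the regions of an H2O2 list were overlapped by a non-treated list.

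Kept loci were wide, and H2O2 lists covered them in pieces. Their median width was 6016 bp, against 2012 bp for gained, 4253 bp for lost and 1264 bp for loci of 1 H2O2 library alone. This order follows in part from the definitions. A kept locus joins regions of all 4 lists, and a gained locus joins only the narrower H2O2 regions. A kept locus held on average 1.06 and 1.08 regions in the non-treated lists and 1.86 and 1.59 in the H2O2 lists. Kept loci with 2 or more regions made up 5.74% and 7.12% in non-treated and 51.5% and 38.8% in H2O2 libraries. The regions covered 73.8% and 75.3% of the bases of kept loci in non-treated cells and 50.9% and 48.2% in H2O2-treated cells. A single non-treated region could be met by as many as 12 regions of an H2O2 list. The median distance from the position of highest signal of a non-treated region to that of an overlapping H2O2 region was 340 to 474 bp over the 4 pairings, and from an H2O2 region to an overlapping non-treated region it was 493 to 851 bp. Between replicates it was 541 and 555 bp in non-treated and 388 and 364 bp in H2O2-treated cells.

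**Figure D3:**
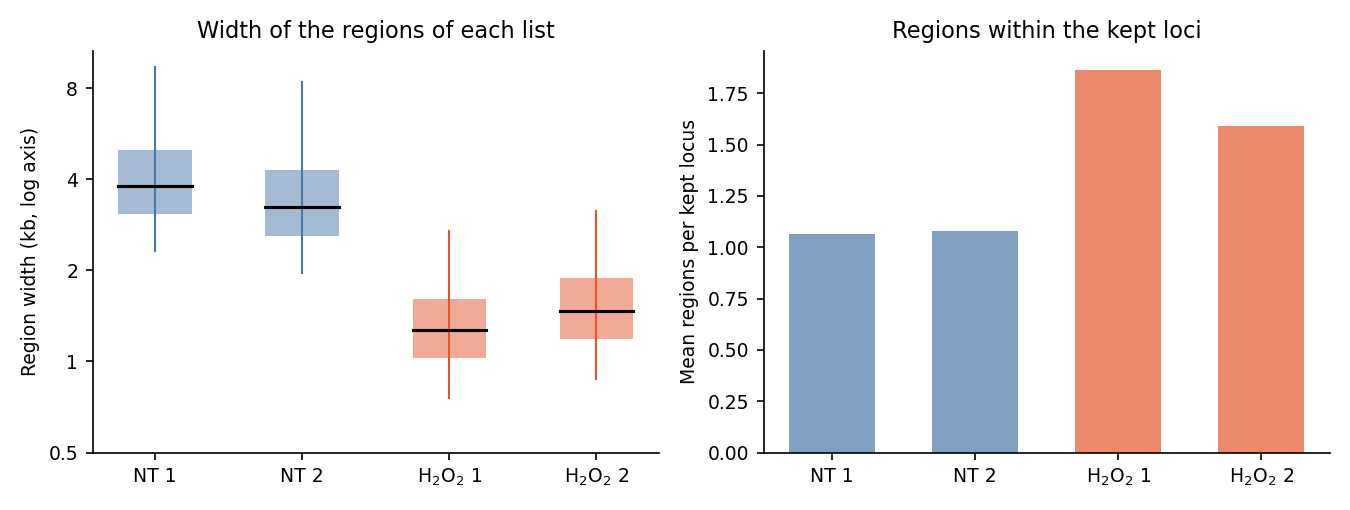
Left, width of the regions of each list (log axis; black line, median; box, 25th to 75th percentile; line, 5th to 95th percentile). Right, mean number of regions within a kept locus; the non-treated (NT) libraries had 1.06 and 1.08 and the H2O2 libraries 1.86 and 1.59.

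High-ranking kept loci show these pieces. The signal of a region is the authors' value and is given below as a percentile within its own list, where 100 is the highest. At the gene CYP24A1, the vitamin D hydroxylase (chr20:54120407-54150182, 29776 bp), non-treated replicate 1 had 1 region of 25422 bp, and non-treated replicate 2 had 3. The H2O2 replicates had 2 and 5 there, and the percentiles in the 4 lists were 99.9, 99.7, 100 and 99.5. At a distance of 39167 bp from PRSS23, a serine protease (chr11:86716994-86751903), each non-treated library had 1 region, of 32157 and 33451 bp, and the H2O2 libraries had 8 and 9, none wider than 5972 bp. Within PRKCH, protein kinase C eta (chr14:61520869-61540930), the non-treated libraries had 1 region each, of 18514 and 18235 bp, and the H2O2 libraries 4 and 2.

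The regions that H2O2-treated cells shared with non-treated cells ranked high. In H2O2 replicates 1 and 2, regions that overlapped a non-treated region had median percentiles of 79.6 and 77.2, against 43.3 and 41.0 for the others. In the top 10% of each H2O2 list 68.0% and 77.9% overlapped a non-treated region, and in the bottom 10% 7.62% and 9.79%. Non-treated regions were found again across all ranks: 99.3% and 98.6% of the top 10% and 87.8% and 89.0% of the bottom 10% of the non-treated lists were overlapped by an H2O2 region.

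Some gained loci nevertheless ranked near the top. A locus at one end of TNRC18 (chr7:5421423-5429076) had percentiles of 99.9 and 100 in the H2O2 lists. A locus in VMP1, a membrane protein of autophagy (chr17:59779675-59788461), had 100 and 99.9. A locus 6887 bp from PRKCH (chr14:61557864-61568271), over the lncRNA LINC01303, also had 100 and 99.9. That locus lies on the same chromosome 14 stretch as the kept PRKCH locus. Over all gained loci, the median distance to the nearest non-treated region was 29533 bp, 27.3% lay within 10 kb of one and 22.5% lay over 100 kb away. Among the 5 lost loci of highest rank were one in CLTC, the clathrin heavy chain (chr17:59615827-59625353, percentiles 93.1 and 97.1), one over a histone gene cluster (chr1:149883349-149890189, 90.2 and 95.7) and one over HES1, a Notch target (chr3:194131775-194141134, 86.1 and 96.3).

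Most regions lay away from gene ends in every library. Windows of 1 kb around both ends of 19970 protein-coding genes, 2.39% of the span, were overlapped by 18.9% and 32.6% of non-treated and 12.6% and 18.7% of H2O2 regions, a difference of group means of -10.1 percentage points (exact permutation p = 0.333). The groups did not overlap, but the gap between non-treated replicate 1 and H2O2 replicate 2 was small. The sign turned when lists were cut to 6992 regions by total signal (8.23 points), by maximum signal (6.57 points) or to equal bases (2.60 points). It was -5.53 points over regions above the median maximum signal of each list and -4.21 points with windows of 5 kb, and the groups overlapped under both. Without non-treated replicate 2 the difference was -3.23 points, and without non-treated replicate 1 it was -17.0 points. Wide regions meet a window more easily. By the position of highest signal the shares were 12.1% and 26.4% in non-treated and 9.36% and 14.9% in H2O2 libraries, which overlap. Regions within gene bodies and away from the ends made up 34.95% and 28.9% in non-treated cells and 46.4% and 42.1% in H2O2-treated cells. Regions outside protein-coding genes made up 46.2% and 38.5%, and 41.1% and 39.3%.

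By pattern, 26.6% of kept, 21.8% of gained and 24.7% of lost loci touched a gene end, against 8.50% of loci of 1 H2O2 library alone and 13.5% of all loci. By midpoint, which is less sensitive to width, the shares were 14.7%, 16.7%, 16.7%, 6.02% and 9.66%. Loci outside protein-coding genes made up 42.4% of kept, 36.3% of gained and 52.0% of lost loci.

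Regions were spread unevenly over chromosomes. Kept loci per Mb were fewest on X (0.0578, 9 loci) and on chromosome 13 (0.192, 22 loci). There were 6.22 gained loci per kept locus on X, 5.65 on chromosome 19 and 5.38 on chromosome 16, against 2.06 on chromosome 4 and 2.10 on chromosome 21. Gained loci thus outnumbered kept loci on every chromosome used.

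A region lay at a gene end of 1574 and 4326 genes in non-treated cells and of 8131 and 8898 genes in H2O2-treated cells, which is 7.88%, 21.7%, 40.7% and 44.6% of 19970 protein-coding genes. The difference of group means was 27.9 percentage points (exact permutation p = 0.333; 32.8 and 22.9 points within pairs), 10.6 points with equal covered bases, and 3.20 points with 6992 regions in each list, where the groups overlapped. Of all genes 1175 were kept (5.88%), 2806 gained (14.1%) and 52 lost (0.26%), and 9138 had no region in any of the 4 lists. With 6992 regions per list the counts were 627, 385 and 221. Of the 385, 211 were among the 2806 gained genes. Leaving out non-treated replicate 1 gave 3443 kept and 185 lost genes, and leaving out non-treated replicate 2 gave 5074 gained genes. Without H2O2 replicate 1 there were 4819 gained and 110 lost genes, and without H2O2 replicate 2 there were 4275 and 123. A window of 5 kb left 7 lost genes. The lists of genes below are read against those shares, 5.88% kept, 14.1% gained and 0.26% lost.

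Small lists of tissue genes are read against the 7.88%, 21.7%, 40.7% and 44.6% of all genes with a region in the 4 libraries. Of 18 bone and mesenchymal genes, SPARC, FN1 and VIM were kept (16.7%, against 5.88% of all genes), and 4, 4, 5 and 8 had a region in the 4 libraries. None was gained (against 14.1%), and 9 of the 18 had no region in any of the 4 lists, against 45.8% of all genes. Of 12 hepatocyte and 12 blood genes, 0 to 1 and 0 to 2 had one. Of 12 germline and 11 skin and gut genes, 0 to 2 and 1 to 2 had one. Of 12 neuronal genes, 1, 1, 5 and 5 had a region. Among them 1 was kept (8.33%, against 5.88%), and STMN2, GAP43 and SLC17A7 were gained (25%, against 14.1%). The gene of SMARCA1 itself, on X, had no region in any of the 4 lists, and that of its paralog SMARCA5 had one in H2O2 replicate 1 alone. OGG1 and ORC6 each had a region in all lists but non-treated replicate 1.

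ITGB1 and TPM1, genes of adhesion and the cytoskeleton, were kept at high rank. ITGB1 (chr10:32900318-32958230) had percentiles of 98.1 and 98.3 in non-treated and 99.7 and 99.9 in H2O2 libraries. Its regions were 13136 and 11545 bp wide in non-treated and 4381 and 7866 bp in H2O2 libraries, narrower in both pairs. TPM1, a tropomyosin of actin filaments (chr15:63042747-63071915), had percentiles of 90.9, 98.4, 100 and 100. Its widths of 8672, 11972, 9485 and 10056 bp overlapped between the treatments, unlike those of ITGB1. Of 14 actin and adhesion genes, TPM1, TLN1 and ITGB1 were kept and FLNA was gained. Of 12 YAP and TEAD targets, the matricellular genes CCN1 and CCN2, ANKRD1 and the receptor AXL were kept (33.3%, against 5.88% of all genes). None was gained, and AJUBA was lost. A list of 12 could hold no gained gene at the 14.1% of all genes. The number with a region in each library was 6, 7, 6 and 7, whereas genome-wide numbers were higher in both H2O2 lists. Most other lists followed the genome-wide numbers, but mismatch repair genes (4, 8, 6 and 6 of 8) and replication-dependent histone genes (16, 27, 27 and 28 of 50) did not.

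Of 14 genes of TGF-beta and BMP feedback, ID1, ID3, SMAD6 and TGFB2 were kept and the decoy receptor BAMBI was gained. ID1 (chr20:31605289-31606510), shown above, had percentiles of 95.01 and 98.7 in non-treated and 99.9 and 99.9 in H2O2 libraries, with widths of 8327, 9967, 4719 and 5818 bp. DKK1, a secreted inhibitor of Wnt signalling (chr10:52314281-52317657), ranked highest of the kept genes outside the lists. Its regions spanned 31667 and 31363 bp in non-treated cells and 9779 and 3828 bp in H2O2-treated cells. CDKN1B, the cell cycle inhibitor p27, was kept with percentiles of 95.8, 98.8, 99.8 and 99.8. Of 16 p53 targets, CDKN1A, GADD45A, PLK3, ZMAT3 and RRM2B were kept and the sestrin SESN1 was gained.

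Replication-dependent histone genes followed another pattern. Of 50, 12 were kept, none gained and 2 lost, and 16, 27, 27 and 28 had a region in the 4 libraries. The kept ones include the chromosome 6 genes H4C2 and H3C2, where 1 non-treated region of 17651 bp in replicate 2 reached both genes. Neighbours in the histone clusters share regions, so their counts are not independent. H2AC11 and H2BC11 were lost together under a shared region with percentiles of 88.4 and 95.3. Outside the list, H2AC20, H2AC21 and H2BC21 were lost under a shared region on chromosome 1 with percentiles of 90.2 and 95.7. H2AZ1, a replication-independent histone variant gene next to DNAJB14, was gained with percentiles of 99.5 and 99.1.

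A few immediate early genes were gained, some at high rank. EGR1 (chr5:138465479-138469303) had no region in either non-treated list and percentiles of 99.8 and 99.9 in the H2O2 lists, with regions of 4361 and 5486 bp. FOSB (chr19:45467996-45475179) had percentiles of 97.3 and 95.9 there, with regions of 2960 and 2912 bp. Of 16 immediate early and AP-1 genes, FOSB, JUND, EGR1 and NR4A1 were gained (25%, against 14.1% of all genes), and FOSL2 and JUN were kept. FOSL2 had percentiles of 97.1, 99.0, 99.8 and 95.6. Gained genes outside the lists that ranked highest were TNRC18, SNAPC1, a subunit of the snRNA activating complex, and ZFP36L1, an RNA-binding protein that destabilises AU-rich mRNAs. SNAPC1 had percentiles of 99.9 and 99.8 and ZFP36L1 of 99.7 and 100. PKM, the pyruvate kinase of glycolysis, had 99.4 and 99.4.

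Repair and antioxidant lists, mismatch repair aside, held no lost gene, where 0.26% of all genes were lost. Lists this small could hold none at that share. Of 20 base excision repair genes, PARP2 was kept (5%, against 5.88% of all genes) and 6 were gained (30%, against 14.1%). The gained ones were the glycosylases NTHL1 and NEIL1, the endonuclease APEX2, the polymerase POLB, the scaffold XRCC1 and PARP1. The 4 libraries had a region at 2, 9, 15 and 19 of the 20. NEIL1 had percentiles of 76.0 and 84.5 and XRCC1 of 85.6 and 65.7, and neither was gained once lists were cut to 6992 regions. Of 22 genes of break repair and checkpoint, CHEK2, BRCA1, RAD50, XRCC5 and RNF168 were kept (22.7%), and ATR, NBN and H2AX were gained (13.6%). NBN, a subunit of the MRN complex, had percentiles of 95.8 and 94.4. Of 20 NRF2 response genes, NQO1, GCLC and the ferritin chains FTH1 and FTL were kept (20%). The gained ones (25%) included KEAP1, GCLM, MAFK and MAFG. Of 14 peroxide and superoxide enzymes, GPX1 and GPX8 were kept (14.3%) and CAT, the catalase, was gained (7.14%) with percentiles of 79.3 and 82.5.

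Lost genes were few, and many had H2O2 regions close by. Of the 52, 27 (51.9%) lay at a locus where an H2O2 list still had a region, outside the windows at the gene ends. Of the 2806 gained genes, 49 (1.75%) lay at a locus with a non-treated region. PMS2, GKN1, AJUBA, HTR1D, IL7R, H2AC11 and H2BC11 were lost at their ends with regions of both H2O2 lists on the same locus, whereas the loci at HES1, SRSF2 and H2BC21 had none. Of the mismatch repair genes described here, MLH3 and PMS1 were kept and PMS2 was lost. PMS2 (chr7:5970925-6009106) had percentiles of 93.3 and 94.5 and widths of 8034 and 5174 bp in the non-treated lists. GKN1 (chr2:68974636-68980976), a stomach gene from a list of other tissues, had 94.2 and 95.4 and widths of 8668 and 10796 bp. Among lost genes outside the lists were HTR1D, a serotonin receptor (97.6 and 94.4), IL7R, the interleukin 7 receptor (96.1 and 95.4), HES1 (86.1 and 96.3), and SRSF2, a splicing factor whose region also reached MFSD11 (83.2 and 92.8).

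Counts for housekeeping and replication genes differed more between the non-treated replicates than between the H2O2 replicates. So did those of all genes (1574 and 4326 in non-treated, 8131 and 8898 in H2O2-treated cells). Of 25 large-subunit ribosomal protein genes, RPL4 and RPL24 were kept and 8 were gained (32%), with 2, 13, 20 and 22 carrying a region in the 4 libraries. Of 23 small-subunit genes, RPS2 was kept and the gained ones included RPS3 and RPS20, with 2, 12, 13 and 13 carrying a region. Of 24 genes of origin recognition and licensing, ORC2, MCM3, MCM5, CDC45 and CDC7 were kept and CDT1, GINS2, GINS4 and DBF4 were gained, with 5, 13, 16 and 23 carrying a region. Of 20 cell cycle genes, CDK1 and CDKN1B were kept and CCNE1, CCNA2, CDC25A and E2F1 were gained. Of 14 genes of ISWI complexes, CHRAC1 was kept and BPTF and HMGXB4 were gained. CHRAC1 was not kept in lists of 6992 regions, where it was lost. Of 16 heat shock and proteostasis genes, ATF4 and XBP1 were kept and HSF2 and BAG3 were gained.

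**Figure D4:**
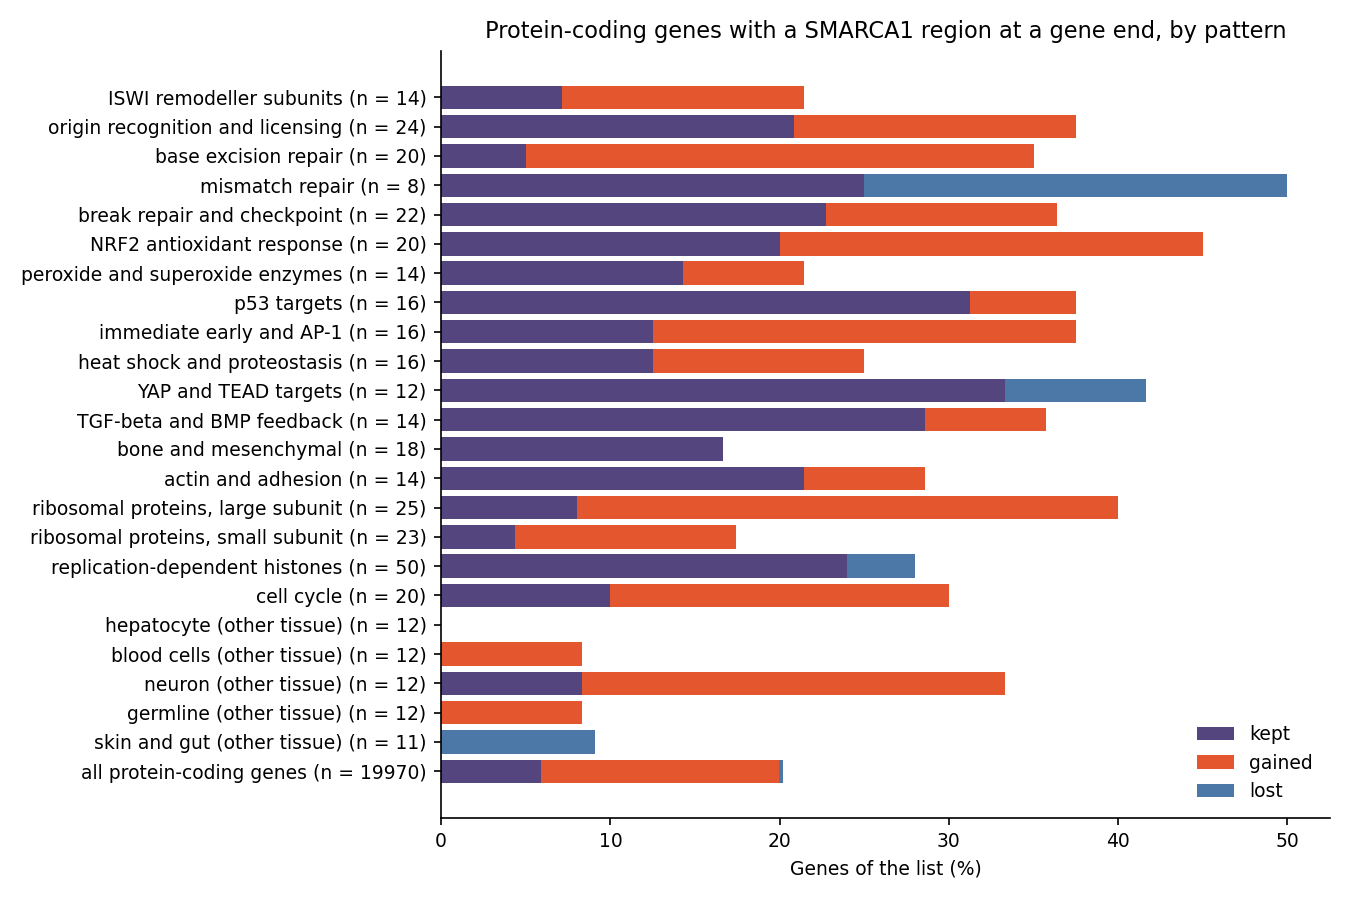
Share of the genes of each list (bars, %) that were kept, gained or lost, with the number of genes of each list found in the annotation; the bottom bar gives all 19970 protein-coding genes (5.88% kept, 14.1% gained, 0.26% lost).

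Among genes of other classes, counted over their whole bodies, tRNA genes carried a region at 1.35% and 7.45% of 443 in non-treated and 23.9% and 24.8% in H2O2 libraries. Of these, 47 were gained (10.6%), 3 kept (0.677%) and 0 lost. Small nucleolar RNA genes (1196) carried a region at 5.60%, 5.85%, 11.3% and 7.69%, with 20 kept (1.67%), 23 gained (1.92%) and 8 lost (0.669%). MicroRNA genes (1911) carried one at 2.35%, 5.08%, 7.90% and 8.53%. Of 18177 lncRNA genes, 1036 were kept (5.70%), 1736 gained (9.55%) and 34 lost (0.187%). Protein-coding bodies, which are longer, carried a region at 13.0%, 26.8%, 56.2% and 55.5% of 19970. They gave 2122 kept (10.6%), 4108 gained (20.6%) and 27 lost (0.135%).

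Many loci of all 3 patterns overlapped regions of Orc6 and OGG1 in siGl3 cells, whose lists covered unlike shares of the genome span. Orc6 lists covered 4.71% and 9.56% in non-treated and 11.2% and 13.2% in H2O2-treated cells. OGG1 lists covered 5.47% and 8.06%, and 27.2% and 25.6%, and the part of this coverage in the overlaps was not tested. Kept loci were overlapped by Orc6 regions in 96.9% ± 3.85 (SD, n = 2 libraries) of cases in non-treated cells and 98.4% ± 0.513 with H2O2. Gained loci were overlapped by Orc6 in 65.8% ± 23.6 and 79.2% ± 1.49, lost loci in 89.7% ± 13.7 and 87.3% ± 2.83, and all loci in 45.7% ± 18.5 and 59.8% ± 1.20. OGG1 regions of non-treated cells overlapped 60.7% ± 3.87 of kept, 43.2% ± 5.12 of gained and 44.3% ± 3.30 of lost loci, and those of H2O2-treated cells 98.6% ± 1.45, 94.2% ± 3.01 and 93.7% ± 2.36. All loci gave 29.6% ± 4.45 and 81.6% ± 5.00. Wider loci meet other regions more often, and kept loci were the widest. By midpoint, Orc6 held 93.2% and 96.1% of kept, 61.0% and 76.1% of gained and 85.0% and 84.3% of lost loci in non-treated and H2O2-treated cells. Over the 4 Orc6 lists the mean share of gained loci was 72.5%, and 47.1% without H2O2 replicate 2 of SMARCA1. All 4 Orc6 lists overlapped 92.1% of kept, 39.0% of gained and 73.3% of lost loci. Of the gained loci, 77 (0.637%) met no Orc6 or OGG1 region in any of the 8 lists. The non-treated Orc6 lists held 23375 and 63692 regions, and replicate 1, the shorter, gave 49.1% of gained loci against 82.5% for replicate 2.

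**Figure D5:**
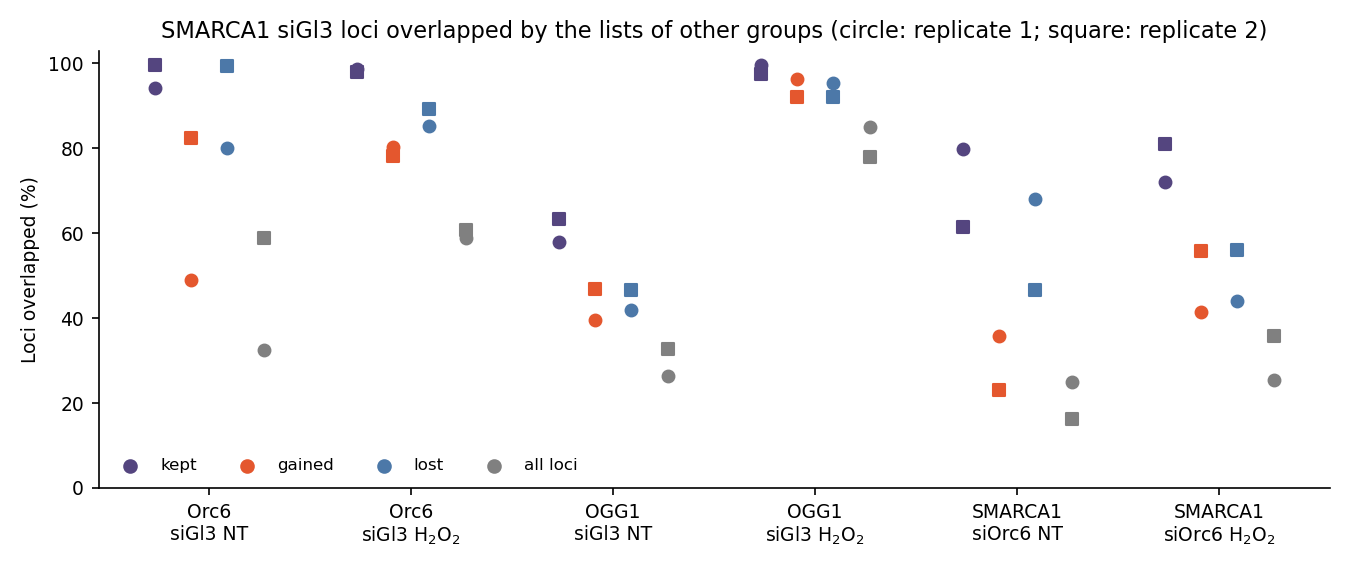
Share of kept, gained, lost and all SMARCA1 siGl3 loci (%) overlapped by each list of the other groups; each point is 1 library. Kept loci lie between 94.1% and 99.6% for Orc6, and all sets lie higher for OGG1 with H2O2 than for OGG1 in non-treated (NT) cells. The OGG1 lists covered 27.2% and 25.6% of the genome span with H2O2 and 5.47% and 8.06% in non-treated cells.

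Genes of each pattern also had regions of the other proteins at their ends. Both non-treated Orc6 lists had a region at 97.5% of kept, 62.5% of gained and 98.1% of lost genes, against 36.9% of all genes. At least 1 had a region at 94.1% of gained genes, against 58.5% of all. Both H2O2 OGG1 lists had one at 99.7% of kept, 99.6% of gained and 52 of 52 lost genes, against 78.4% of all. EGR1, FOSB and CAT had a region in all 12 lists of the other groups, non-treated ones included. ZFP36L1 had none in the 4 Orc6 lists and one in each of the 4 OGG1 and the 4 SMARCA1 siOrc6 lists. PMS2, AJUBA, HTR1D, HES1 and SRSF2 had one in all 12 lists. 

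SMARCA1 lists of cells depleted of Orc6 (siOrc6) overlapped kept loci most. Non-treated siOrc6 lists overlapped 70.7% ± 12.9 of kept, 29.4% ± 9.05 of gained and 57.3% ± 15.1 of lost loci, and H2O2 siOrc6 lists 76.6% ± 6.45, 48.7% ± 10.2 and 50.0% ± 8.49 (SD, n = 2). All loci gave 20.6% ± 6.05 and 30.5% ± 7.31. By midpoint the H2O2 lists held 53.4% of kept, 38.9% of gained and 41.0% of lost loci. With 6992 regions per siGl3 list the gained share was 68.7% for the non-treated and 83.7% for the H2O2 siOrc6 lists. Without H2O2 replicate 2 the gained shares were 13.2% and 21.5%, and without non-treated replicate 2 the lost shares were 31.1% and 30.1%. No SMARCA1 siOrc6 list had a region at 8.91% of kept and 37.4% of gained loci. At gene ends, at least 1 non-treated siOrc6 list had a region at 76.7% of the 2806 gained genes, against 49.4% of all genes. At least 1 H2O2 siOrc6 list had one at 88.5% of lost genes, among them PMS2 and HES1, against 74.0% of all genes.

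The change with H2O2 was set beside that in siOrc6 cells, over 8 SMARCA1 libraries and 5 measures, by exact two-sided permutation of the siRNA label within treatment (36 arrangements). The arrangements assume no effect of the siRNA in either treatment. A siRNA effect shared by both treatments widens them, so the p-values below cannot isolate a difference between the changes. In siOrc6 cells region number was 1.91 higher with H2O2 on the log2 scale, against 2.71 in siGl3 cells, a difference of 0.80 (exact p = 0.278, Benjamini-Hochberg adjusted 0.625). Bases covered differed by 1.25 in siGl3 and 0.32 in siOrc6 cells on the log2 scale, and in siOrc6 cells the pairs went opposite ways (-0.50 and 1.14; difference 0.93, exact p = 0.389). Median width with H2O2 differed from non-treated by -3883.5 bp in siOrc6 and -2140.75 bp in siGl3 cells (difference 1742.75 bp, exact p = 0.333). The share of regions at gene ends differed by -25.8 points in siOrc6 and -10.1 points in siGl3 cells (difference 15.7, exact p = 0.5). The share of genes occupied was 25.1 points higher in siOrc6 and 27.9 points higher in siGl3 cells (difference 2.78, exact p = 0.889). The adjusted p was 0.625 for the first 4 measures and 0.889 for the last, and none passed. With the replicate block (16 arrangements) the 5 p-values were 0.5, 0.625, 0.5, 0.625 and 1. These tests do not show that the siRNAs act alike. In all 4 pairs of libraries, in siGl3 and siOrc6 cells, the H2O2 list was longer and its regions were narrower.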

How the data were processed

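CUT&RUN libraries were mapped and called by the authors before deposit; per the submitters' processing notes, the build was hg38 and the tools, whose roles are not given, were SEACR 1.1, Bowtie2, deepTools, SAMtools, DiffBind, bedtools and DESeq2. Each deposited list gives the regions of 1 library and, for each region, its summed and its highest signal as whole numbers from the authors. The sources used here do not say how that signal was scaled or against which control. Signal was therefore used for ranks and filters within a list. The exception is the lowest total signal, which was set side by side between lists without a common scale.

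Only chromosomes 1 to 22 and X were kept, which left out at most 0.470% of a list. Loci are connected regions of the 4 lists overlapping by at least 1 bp. Gene positions, promoters and their strand come from RefSeq tables of GRCh38.p14. The planned windows at start sites were replaced by 1 kb on each side of both gene ends, since start sites were listed for 15811 of 19970 protein-coding genes, and start sites became an added alternative. All members of 23 gene lists were looked up, and 2 symbols, BAP18 and LOR, were not found. Named were, per pattern, at most 20 list genes, 10 other genes and 5 loci of highest mean percentile, of which a selection is described. Some genes of these lists are not reported here. The members and lists were chosen with earlier results of these data known.

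Values of whole libraries were compared by an exact two-sided permutation test. Same-numbered replicates share a batch in the labels. The numbers therefore pair the libraries, and every test was repeated with this block. Region and pattern code was tested on simulated lists. Computation used Python 3.11.15, pandas 2.3.3, numpy 2.4.6 and scipy 1.17.1. Lists of OGG1 in siOrc6 cells and window files without values were not used.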

Additional observations from a re-analysis of the deposited data

How the results depend on the processing

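Over 30 results and 301 alternative settings, 210 settings kept the direction and, for counts and shares, stayed near the reported value, 82 moved a value and 9 reversed its sign. The directions of region number and median width were the same under each setting run. For region number the settings were filters within each list, leaving out 1 library, and the replicate block. None of them evened out list length, so they say little about the direction of region number. The 6 settings on start sites and on positions of highest signal were chosen after seeing the data. The replicate block gives the same differences by construction (region number 2.71 and bases 1.25 on the log2 scale, width -2140.75 bp, regions at genes -10.1 points, genes occupied 27.9 points). Each had p = 0.5 by exact sign change within pairs, the smallest possible, so no call could change. With 6992 regions per list by total signal, values were: bases covered -0.67 (log2), regions at genes 8.23 points, kept loci 1588, gained loci 637, lost loci 1134, non-treated loci found again in both H2O2 libraries 40.03%, gained loci overlapping Orc6 regions 89.1%, kept loci overlapping non-treated siOrc6 regions 86.2%, kept loci overlapping H2O2 siOrc6 regions 90.4%, gained loci overlapping non-treated siOrc6 regions 68.7%, gained loci overlapping H2O2 siOrc6 regions 83.7%, lost loci overlapping H2O2 siOrc6 regions 59.3%, kept genes 627, gained genes 385, lost genes 221, replicate sharing of regions, non-treated 59.8%, replicate sharing of regions, H2O2 46.5%, siGl3 minus siOrc6 change in regions at genes -2.80 points. With 6992 per list by maximum signal, values were: regions at genes 6.57 points, kept loci 1139, gained loci 710, lost loci 1322, kept genes 508, gained genes 393, lost genes 341, replicate sharing of regions, non-treated 56.2%, replicate sharing of regions, H2O2 38.7%. With equal covered bases, values were: regions at genes 2.60 points, kept loci 2225, gained loci 1870, lost loci 546, non-treated loci found again in both H2O2 libraries 58.3%, gained loci overlapping Orc6 regions 90.4%, kept loci overlapping H2O2 siOrc6 regions 87.01%, gained loci overlapping non-treated siOrc6 regions 58.4%, gained loci overlapping H2O2 siOrc6 regions 77.8%, kept genes 776, gained genes 947, lost genes 128, replicate sharing of regions, non-treated 60.6%, replicate sharing of regions, H2O2 47.3%. With an overlap of 50% of the shorter region required, values were: non-treated loci found again in both H2O2 libraries 84.6%, replicate sharing of regions, non-treated 69.1%, replicate sharing of regions, H2O2 42.4%, gap in median percentile between H2O2 regions on and off non-treated regions 36.8 points. With regions up to 1 kb apart merged, values were: non-treated loci found again in both H2O2 libraries 88.2%. With the upper part of each list by maximum signal, values were: kept loci 1620, gained loci 6499, non-treated loci found again in both H2O2 libraries 82.3%, kept loci overlapping H2O2 siOrc6 regions 84.04%, gained loci overlapping non-treated siOrc6 regions 48.1%, gained loci overlapping H2O2 siOrc6 regions 67.5%, lost loci overlapping H2O2 siOrc6 regions 64.5%, kept genes 419, replicate sharing of regions, non-treated 62.5%, replicate sharing of regions, H2O2 44.8%, siGl3 minus siOrc6 change in genes occupied -6.03 points. With windows of 5 kb, values were: lost genes 7. With ranks of maximum signal, values were: gap in median percentile between H2O2 regions on and off non-treated regions 36.3 points. Leaving out 1 library in turn gave these ranges: kept loci 4338 to 8121, gained loci 13224 to 54767, lost loci 356 to 706, non-treated loci found again in both H2O2 libraries 74.7 to 92.6%, gained loci overlapping Orc6 regions 47.1 to 77.9%, kept loci overlapping H2O2 siOrc6 regions 70.1 to 80.5%, gained loci overlapping non-treated siOrc6 regions 13.2 to 41.2%, gained loci overlapping H2O2 siOrc6 regions 21.5 to 57.6%, lost loci overlapping non-treated siOrc6 regions 31.1 to 57.9%, lost loci overlapping H2O2 siOrc6 regions 30.1 to 57.7%, kept genes 1233 to 3443, gained genes 2961 to 5074, lost genes 74 to 185, gap in median percentile between H2O2 regions on and off non-treated regions 34.9 to 37.4 points, siGl3 minus siOrc6 change in genes occupied -4.11 to 9.67 points. The count ranges follow from the patterns asking for both libraries of a kind. For the other moved and reversed values the cause was not tested. Depth is unknown, so what it limits could not be measured.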
